A study of Saccharomyces cerevisiae with 63 samples.

Results

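Yeast cells of a pho92 mutant were compared with control cells 1 h after the meiotic programme had been switched on. The comparison rests on 6 of the 63 libraries of the series, 3 of the pho92 mutant and 3 of the control strain (called WT here) at 3 h in sporulation medium, chosen by strain and time alone, and on 5822 genes tested of the 6088 in the table. All strains were diploids of the SK1 background, and all of them, the controls included, carried pCUP-IME1, a copper-inducible promoter at IME1. Cells respired on glycerol, grew in rich medium, spent 16 h in acetate pre-sporulation medium and were then moved to 0.3% potassium acetate (0 h), and 50 µM copper sulfate was added at 2 h. Libraries at 2 h, the time of copper addition, show the strain difference without the copper hour, and 3 libraries of the ime4 mutant at 3 h give a second mutant at the same time. The labels name the mutants only as pho92 and ime4, call the replicates biological and do not say how many clones stood behind a strain.

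PHO92 encodes the YTH-domain protein of budding yeast, which binds N6-methyladenosine (m6A), a methylated base that a complex around the methyltransferase Ime4 places in mRNA during meiosis. The transcription factor Ime1 starts the meiotic programme: with the DNA-bound protein Ume6 it switches on early genes for premeiotic DNA replication and recombination, and later Ndt80 switches on middle genes for the divisions and spore formation. As cells enter this programme they also shut down the genes of growth, among them those for ribosomes and biosynthesis. The question put here is which transcripts already differ between the strains at this early point.

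Polyadenylated RNA was counted per gene. Total counts at 3 h were 16767717 to 20827573 in the WT libraries and 14287270 to 17148433 in the pho92 libraries, and the 100 most abundant genes held 26.31% to 26.57% and 24.52% to 24.83% of them. Levels are given as CPM, read counts scaled to a common library size, on library sizes scaled by TMM factors, differences are log2 fold changes with their standard error (SE), and adjusted p is the Benjamini-Hochberg value of edgeR's quasi-likelihood test over all genes tested. Calls were made at an adjusted p below 0.05. Defining markers of the labelled stage and cell type were summed, with no haploid reference to set them against. The 7 early meiotic markers IME2, SPO11, HOP1, RED1, REC8, DMC1 and ZIP1 summed to 15100 to 16300 CPM in WT and 11600 to 13300 CPM in pho92. Summed haploid-specific markers (9 genes) were at 177 to 209 and 180 to 186 CPM, a-specific markers (6 genes) at 87.8 to 96.7 and 86.5 to 92.3 CPM, and alpha-specific markers (4 genes) at 88.3 to 99.9 and 80.1 to 91.5 CPM, with 0 members without any count. Similar sums can hide members that differ: the highest haploid-specific member mean was 84.2 CPM in WT and 44.8 in pho92. The 3 middle markers NDT80, SPS4 and SMK1 summed to 268, 213 and 172 CPM in WT and 214, 105 and 53.1 in pho92.

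In all, 597 genes were higher in pho92 than in WT at 3 h (10.3% of the genes tested) and 445 lower (7.64%). The called differences were mostly small, with a median size of 0.66 on the log2 scale (quartiles 0.49 and 0.94). A difference of 1 or more was reached by 173 genes called higher and 46 called lower, and of 2 or more by 4 and 3. The split between higher and lower depended on the scaling of the libraries: 643 and 159 with total counts only, where the median of all genes stood at 0.10 rather than 0.01, 496 and 632 with RLE factors, and 553 and 746 with DESeq2. Single libraries carried much of the count, which was 658 without WT replicate 1, 521 without WT replicate 2 and 418 without pho92 replicate 3. The authors' deposited table called 1311 genes, 560 higher and 751 lower; 992 were called in both with the same sign, 95.2% of the calls made here and 75.7% of those in the authors' deposited table.

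The targeted gene checked the labels. PHO92 (YDR374C, chromosome IV, 1223474 to 1224394 on R64) had 26581, 24017 and 30715 raw counts in the WT libraries and 2, 10 and 2 in the pho92 libraries. In CPM these were 1140, 1040 and 1080 against 0.0788, 0.483 and 0.0849, a log2 difference of −12.33 (SE 0.78, adjusted p = 1.09e-16). The pho92 libraries thus held next to no PHO92 reads, while in WT the transcript was plentiful. Its neighbour FRQ1, which encodes a calcium-binding regulator of a phosphatidylinositol kinase and runs towards PHO92 on the other strand, had 65.3, 71.2 and 63.8 CPM in WT and 23.2, 13.4 and 14.6 in pho92 (−1.96, SE 0.20, adjusted p = 6.77e-10). It was lower by −2.68 at 2 h as well. On the other side, WIP1, a kinetochore protein gene, differed by 0.45 at 3 h (adjusted p = 0.102) and was higher by 1.72 at 2 h (adjusted p = 2.22e-08). The part of the altered PHO92 locus in these neighbouring values was not tested.

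Most of the largest falls lay in a single stretch of chromosome III. Of the 15 genes with the largest falls, 13 sit between the mating-type locus MAT and the silent cassette HMR (chromosome III, 200970 to 293178 on R64), and the other two are PHO92 and FRQ1. The stretch was picked out after its values were seen. CDC39, which encodes the Not1 scaffold of the Ccr4-Not deadenylase, had 420, 418 and 339 CPM in WT and 141, 151 and 124 in pho92 (−1.50, SE 0.16, adjusted p = 9.85e-10). TUP1, the general co-repressor gene, had 258, 279 and 228 CPM against 111, 108 and 95.6 (−1.28, SE 0.14, adjusted p = 2.11e-09). CSM1, a monopolin subunit gene that acts at kinetochores in meiosis I, had 60.6, 65.8 and 56.5 CPM against 21.8, 15.5 and 14.9 (−1.80, SE 0.19, adjusted p = 1.49e-09). In each of these genes every pho92 library was well below every WT library. The others of the 13 were CDC50 (−1.55), a phospholipid flippase subunit gene, ERS1 (−1.48), SED4 (−1.45), a gene of vesicle budding from the endoplasmic reticulum, HCM1 (−1.37), a forkhead factor gene, PTC6 (−1.36), TVS1 (−1.32), the cyclophilin gene CPR4 (−1.31), EGO2 (−1.29), FUB1 (−1.24) and the decapping activator gene PAT1 (−1.23), with adjusted p from 1.32e-13 (CDC50) to 0.000408 (EGO2).

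The shift covered the stretch rather than a few genes in it. Of its 44 genes tested 34 were called lower and 0 higher, 77.3% against 7.18% of the 5361 genes of other chromosomes, and 8 of 101 genes elsewhere on chromosome III were lower. The median difference of the 44 was −0.88 (quartiles −1.25 and −0.50, range −1.80 to 0.54), against −0.01 elsewhere on the chromosome. In 38 of the 44 every pho92 library was below every WT library, which held for 24.1% of all genes tested. Summed over the 44 genes, WT libraries had 3640, 3690 and 3520 CPM and pho92 libraries 1730, 1810 and 1650, so that the pho92 mean was 47.9% of the WT mean. At 2 h the sums were 3410, 3450 and 3400 against 1670, 1790 and 1610 CPM, 49.4% of WT, with 34 genes lower (median −0.92). The ime4 libraries at 3 h stood with WT in their sum, at 3490, 3170 and 3420 CPM, and pho92 was lower than ime4 for 35 genes, with all 44 differences below 0 (median −0.94). DNA copy number was not measured, and its part in these differences was not tested. Without these genes, PHO92 and FRQ1, 409 genes were lower and 597 higher.

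**Figure D1:**
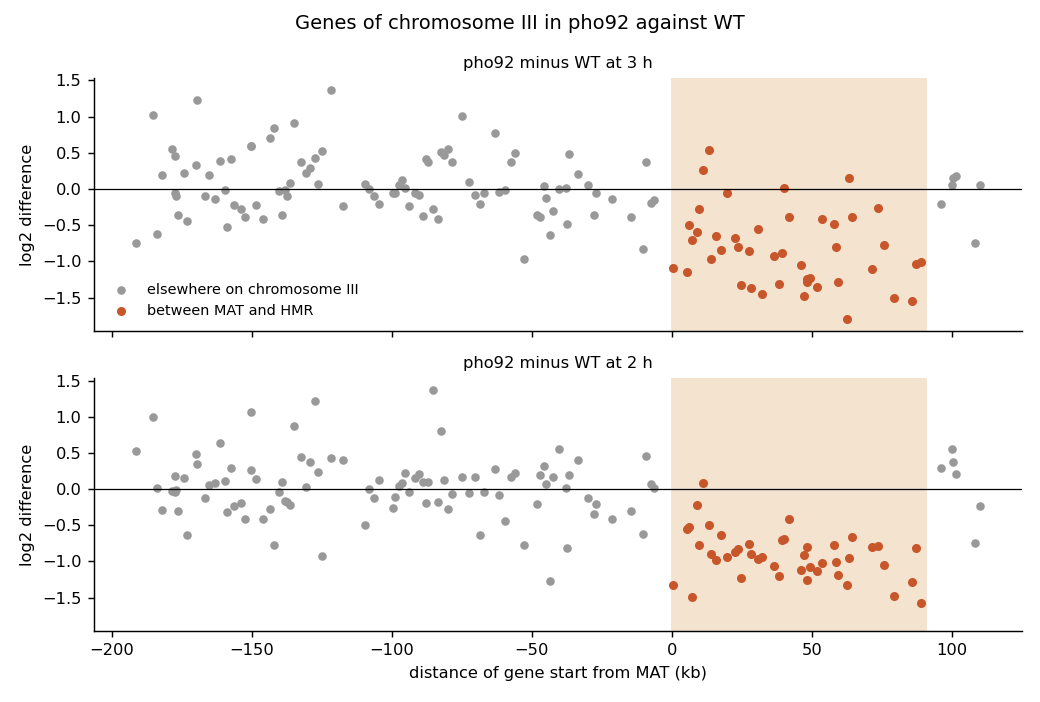
Log2 difference between pho92 and WT (vertical axis) for each gene tested on chromosome III against the distance of its start from MAT in kb (horizontal axis), at 3 h (upper panel) and 2 h (lower panel). Genes between MAT and HMR (orange, shaded) have medians of −0.88 at 3 h and −0.92 at 2 h, while the genes elsewhere on the chromosome (grey) scatter around 0.

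Outside this stretch and the PHO92 locus, 15 further falls were taken by the same rule after the stretch had been seen. SGS1, the RecQ helicase gene, had 209, 222 and 168 CPM in WT and 119, 97.7 and 79.9 in pho92 (−1.02, SE 0.18, adjusted p = 9.09e-05). PDS1, which encodes securin, had 476, 546 and 520 against 300, 297 and 223 CPM (−0.91, SE 0.33, adjusted p = 0.0469). SGO1, the shugoshin gene that guards centromeric cohesin, had 132, 159 and 121 against 79.0, 71.2 and 49.2 CPM (−1.05, SE 0.31, adjusted p = 0.0157). The rule takes only genes whose groups do not overlap, here as for the other largest rises and falls. The motor gene KAR3 (−0.93) and VIK1 (−1.05), whose product pairs with Kar3, were both lower, as were the kinetochore gene CHL4 (−0.95), the deacetylase gene HOS3 (−0.99) and NRM1 (−1.12), a co-repressor gene of the G1/S factor MBF. ARO10 (−1.14) and ARO9 (−1.01), enzymes of aromatic amino acid breakdown, were lower too. The rest were YEF1 (−1.09), VTC5 (−1.03), the vacuolar transporter gene YBT1 (−0.94), MCO10 (−0.92) and AXL1 (−0.91). Calls in 7 of the 15 were lost when a single library was left out: without pho92 replicate 3 the adjusted p was 0.211 for PDS1, 0.152 for ARO10, 0.128 for SGO1, 0.104 for ARO9, 0.102 for KAR3, 0.087 for VTC5 and 0.0632 for AXL1. PDS1 and ARO10 were lost also without other libraries, PDS1 without any one of the 6.

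IME1 itself, which all strains express from the copper promoter, had 3470, 2660 and 2060 CPM in WT and 2230, 1770 and 2060 in pho92, a difference of −0.43 (SE 0.25, adjusted p = 0.238) with overlapping groups. It stood at −0.22 without WT replicate 1. IME4 was lower in pho92, at 216, 198 and 162 CPM against 365, 332 and 330 (−0.83, SE 0.18, adjusted p = 0.00102), and was lower at 2 h as well (−0.98). Of the 6 genes of the m6A methyltransferase complex 3 were lower and 0 higher, beside 7.64% and 10.3% of all genes tested. The 3 were IME4, MUM2 (−0.58, adjusted p = 0.000643) and KAR4 (−0.44, adjusted p = 0.0347). MUM2 had 612, 575 and 587 CPM in WT and 453, 390 and 345 in pho92, without overlap. The call of KAR4 was lost without any library but pho92 replicate 2 (adjusted p = 0.152 without pho92 replicate 3) and with total counts only (adjusted p = 0.282).

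Recombination genes lay slightly below WT in nearly every case, but few of them passed the test. The 15 genes that make double-strand breaks or build the chromosome axis all had differences below 0 (median −0.39, range −0.68 to −0.07), and 2 were called lower, SKI8 (−0.43, adjusted p = 0.00785), a partner of the break-making enzyme Spo11, and XRS2 (−0.31, adjusted p = 0.0219) of the Mre11 complex. Of 24 genes of strand exchange, crossover formation and synapsis 23 were below 0 (median −0.35). The shares called lower were 13.3% of the 15 and 12.5% of the 24, beside 7.64% of all genes tested. In the list of 24, 3 were called lower. Among these were the mismatch repair paralog gene MLH3 (−0.51, adjusted p = 0.027) and CSM4 (−0.57, adjusted p = 0.029), needed for chromosome movement. Of the calls of SKI8, XRS2, MLH3 and CSM4, 0 remained when scaling used total counts only (adjusted p = 0.137 to 0.26), nor did any without pho92 replicate 3 (adjusted p = 0.0718 to 0.178), and without WT replicate 2 only SKI8 of these was called. The list medians were −0.30 and −0.26 with total counts only, and 0 of the 39 genes were then called. The difference in summed level at 3 h was visible in each library: the 24 strand exchange genes came to 18800, 17500 and 17600 CPM in WT and 14700, 14000 and 12300 in pho92. At 2 h the medians of the 15 and the 24 genes were −0.56 and −0.58. Then 0 and 2 were called lower, beside 3.9% of all genes tested. The 24 came to 4290, 3300 and 2630 CPM in WT at 2 h and 3970, 1150 and 1230 in pho92. Replicate 1 was the highest in both strains. In the test of the change between the times 0 of either list were called (medians 0.12 and 0.13).

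Some central genes of the cascade, named here after their values were seen, did not pass the test. SPO11 had 389, 299 and 295 CPM in WT and 280, 176 and 158 in pho92 (−0.68, SE 0.28, adjusted p = 0.0909). ZIP1, a gene of the synaptonemal complex, had 1450, 1360 and 1150 against 835, 799 and 631 CPM (−0.81, SE 0.32, adjusted p = 0.0687). The kinase gene IME2 had 3040, 2720 and 2630 against 2190, 2130 and 2030 CPM (−0.40, SE 0.38, adjusted p = 0.496). In these genes the 3 pho92 libraries lay below the 3 WT libraries, which held for 24.1% of all genes tested. All passed when the 6 libraries were fitted by themselves (adjusted p = 0.0304, 0.00321 and 0.0199). That fit called 2215 genes, against 1042 in the main fit. NDT80 was low at this time, at 136, 68.4 and 50.5 CPM in WT and 112, 31.1 and 21.2 in pho92 (−0.63, SE 0.41, adjusted p = 0.302), with replicate 1 the highest in both strains. Its difference was −0.12 without WT replicate 1 and −1.70 (adjusted p = 0.00432) without pho92 replicate 1. Of 38 middle meiotic genes 0 were called in either direction (median −0.32), and of 15 late spore wall genes likewise 0 (median −0.43). Among genes of premeiotic DNA replication 4 of 36 were higher and 1 lower (11.1% and 2.78%, median −0.03). Over all genes tested these shares were 10.3% and 7.64%. The flap endonuclease gene RAD27 (1.02), the ligase gene CDC9 (0.72) and the polymerase delta subunit gene POL31 (0.55) were among the higher. The primase gene PRI1 was the lower (−0.45). Without pho92 replicate 3 the adjusted p was 0.0506 for CDC9 and 0.12 for PRI1, and CDC9 was lost also without pho92 replicate 2 (0.126), WT replicate 1 (0.0694) or WT replicate 2 (0.0646).

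Genes that rise in WT between 2 and 5 h were more often lower than higher in pho92 at 3 h, and genes that fall were more often higher. Genes were sorted by their change in WT between 2 and 5 h, in libraries that take no part in the comparison at 3 h: 1983 genes rose (34.1% of those tested) and 1823 fell (31.3%). Among those that rose in WT, 324 were lower in pho92 at 3 h (16.3%) and 36 higher (1.82%), with a median difference of −0.20 (quartiles −0.39 and 0.00). Among those that fell in WT, 405 were higher in pho92 (22.2%) and 32 lower (1.76%), with a median of 0.25 (quartiles 0.02 and 0.56). The remaining 2016 genes had a median of 0.03, with 156 higher and 89 lower. Each pho92 library showed this, with medians against the WT mean of −0.15, −0.18 and −0.27 for replicates 1 to 3 in the class that rose, and 0.16, 0.23 and 0.33 in the class that fell. Most genes of either class were not called, and 25.1% of the class that rose lay above 0. The medians were −0.10 and 0.39 with total counts only, and −0.27 and 0.17 with RLE factors. At 2 h, in WT libraries that also define the classes, the medians were −0.01 and 0.07. For ime4, set against the same WT libraries at 3 h, they were −0.32 and 0.30, and in the direct comparison of pho92 with ime4 they were 0.11 and −0.07. In bulk RNA, fewer cells that have entered the programme and less transcript per cell cannot be told apart.

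**Figure D2:**
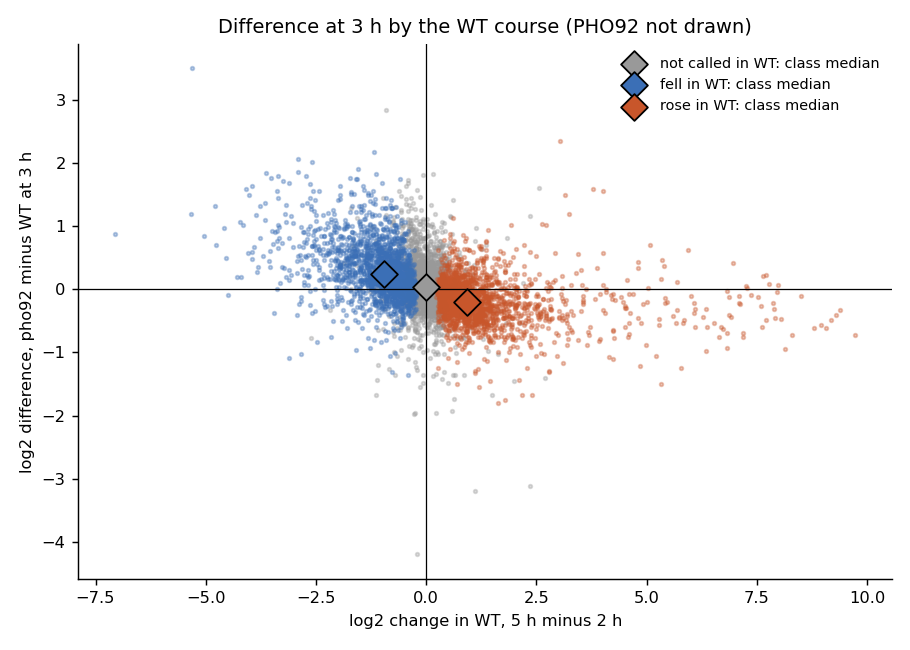
Log2 difference between pho92 and WT at 3 h (vertical axis) against the log2 change in WT from 2 to 5 h (horizontal axis) for the genes tested, PHO92 left out. Diamonds mark the class medians, which lie at −0.20 for genes that rose in WT (orange), 0.25 for genes that fell (blue) and 0.03 for the others (grey).

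Genes for making ribosomes were higher in pho92. Of 56 ribosome biogenesis genes 31 were called higher (55.4%, beside 10.3% of all genes tested) and 0 lower. A difference above 0 was seen in 55 of them (median 0.90, against 0.01 for all genes tested). RRP5, whose product is needed for the cleavages of pre-ribosomal RNA, had 17.1, 10.5 and 8.89 CPM in WT and 30.4, 30.7 and 36.2 in pho92 (1.41, SE 0.33, adjusted p = 0.00178). The helicase genes DBP10 and MAK5 had 19.6, 18.4 and 16.8 against 35.1, 34.6 and 39.9 CPM (1.00, SE 0.17, adjusted p = 4.96e-05) and 10, 9.37 and 8.86 against 17.4, 18.6 and 25.6 CPM (1.12, SE 0.25, adjusted p = 0.00133). NOP4, a nucleolar protein gene, had 14.7, 9.55 and 12 against 25.8, 27.9 and 33.5 CPM (1.27, SE 0.26, adjusted p = 0.00051). All these genes kept the strains apart in every library. The summed level of the 56 genes was 1090, 1020 and 962 CPM in WT and 1580, 1550 and 1770 in pho92 at 3 h. At 2 h it had been 2330, 2480 and 2190 CPM in WT and 1780, 1830 and 3220 in pho92. At that time 0 of the 56 were called higher and 1 lower (median 0.03), beside 8.47% and 3.9% of all genes tested. In the test of the change between the times 0 were called (median 0.89). The number called at 3 h leaned on single libraries, with 10 without pho92 replicate 3, 22 without pho92 replicate 2 and 14 to 17 without each WT library, while it was 29 with total counts only and 28 with RLE factors.

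Many ribosome biogenesis genes carry the PAC element, spelled GATGAG, ahead of their coding sequence. In the 300 bases before the start codon in the S288C reference (R64, RefSeq), searched on both strands, 52 of the 56 genes held GATGAG or its complement CTCATC (92.9%), against 1148 of 6007 genes overall (19.1%). Among the members 28 of the 31 called and 24 of the other 25 held it, so called and uncalled members did not stand apart in this. The matches nearest the start codon in the 4 genes described follow in the direction of the gene, with the element in capitals.
DBP10: ttttcaagcGATGAGatgaaattc
NOP4: ctatctcatCTCATCgtttattct
MAK5: ttttccagcGATGAGcttataaga
RRP5: ttaagatgaGATGAGctaaaccct
They lie at chrIV:394073-394096 (plus strand), chrXVI:469815-469838 (plus), chrII:528189-528212 (plus) and chrXIII:731260-731283 (minus). A match describes the letters in the reference and was not examined in SK1, and binding was not measured.

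Few genes for the proteins of the cytosolic ribosome passed the test. Of 118 genes 8 were called higher and 0 lower, which is 6.78% beside 10.3% for all genes, although 112 differences were above 0 (median 0.46). RPL20A had 9.44, 10.8 and 10.4 CPM in WT and 18.5, 17.0 and 23.1 in pho92 (0.94, SE 0.25, adjusted p = 0.00663), and RPS27A had 7.86, 10.6 and 9.70 against 17.5, 12.1 and 19.7 CPM (0.81, SE 0.24, adjusted p = 0.0171). RPL35B (0.90, adjusted p = 0.0323) and RPS25B (0.86, adjusted p = 0.0362) were the next. With total counts only 3 and with RLE factors 4 were called. Without pho92 replicate 3, 0 of the 118 were called, and without each WT library 2; a fit to the 6 libraries alone called 63 higher and 1 lower. Reads of the paired A and B copies of these genes may be shared, so single values are uncertain. At 2 h 34 of the 118 were lower in pho92 and 0 higher (median −0.72), beside 3.9% and 8.47% of all genes tested. The test of the change between the times called 2 upward and 0 downward. Summed levels dropped in both strains over the hour, from 10700, 18600 and 13300 CPM to 2190, 2340 and 2370 in WT and from 5830, 8360 and 11600 to 2930, 2620 and 3630 in pho92. Mitochondrial ribosomal protein genes gave 8 higher of 58 (13.8%, near the 10.3% of all genes) and 0 lower (median 0.21). Among the 8 were MRPL8 at 0.86 (adjusted p = 2.59e-05), MRPL11 at 0.78, RSM10 at 0.66 and MRP4 at 0.62. At 2 h 28 were higher (48.3%, beside 8.47% of all genes tested) with a median of 0.49. The test of the change from 2 to 3 h called 0 of the 58 in either direction. The 8 at 3 h were 12 with total counts only, and 4 or 5 without WT replicate 1, WT replicate 2 or pho92 replicate 3.

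Proteasome genes were mostly lower. The list of 33 genes holds subunits of the 26S proteasome, which degrades ubiquitin-tagged proteins, and RPN4, the gene of a transcription factor for them. Of these 25 were called lower and 0 higher (75.8%, beside 7.64% for all genes), and all 33 differences were below 0, within −0.72 to −0.14 (median −0.50). PRE2, which encodes a catalytic subunit, had 655, 676 and 607 CPM in WT and 447, 373 and 360 in pho92 (−0.72, SE 0.15, adjusted p = 0.000595). RPN8 had 811, 881 and 763 against 556, 530 and 478 CPM (−0.65, SE 0.15, adjusted p = 0.00161), and RPN2 954, 939 and 751 against 635, 600 and 559 CPM (−0.56, SE 0.13, adjusted p = 0.00245). RPN9 was lower by −0.57 (SE 0.12, adjusted p = 0.000872), and RPN4 by −0.65 (SE 0.22, adjusted p = 0.0339). The genes whose levels are given here were below WT in each pho92 library. Over the 33 genes, WT rose from 12000, 11200 and 11900 CPM at 2 h to 18000, 18100 and 16000 at 3 h, and pho92 stood at 11200, 10200 and 10000 and then at 13400, 11900 and 11400 CPM. The ime4 libraries had 11400, 10300 and 11300 CPM at 3 h. In the test of the change in strain difference from 2 to 3 h, 0 of the 33 were called in either direction (median −0.36). The calls depended on the scaling and on single libraries: 2 of the 33 with total counts only (median −0.41), 29 with RLE factors (median −0.57), 9 without pho92 replicate 3 and 16 without WT replicate 1 or without WT replicate 2. The direction was below 0 in the median under each of these.

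The proteasome genes are also known for a shared promoter element, GGTGGCAAA, bound by the transcription factor Rpn4. It was found on either strand within 300 bases of the start codon in 27 of the 33 genes (81.8%) and in 73 of the 6007 genes overall (1.2%), in 22 of the 25 members called and 5 of the 8 not called. For 3 of the genes described it reads as follows, with the element in capitals and the gene running to the right.
PRE2: cagcaaaagGGTGGCAAAacgaagaat
RPN9: ctttcatccGGTGGCAAAagtaagaac
RPN2: tttattttcGGTGGCAAAactggatac
The windows are chrXVI:732185-732211 (plus strand), chrIV:1322087-1322113 (plus) and chrIX:220802-220828 (minus) on R64. RPN8 had no exact match in its window.

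**Figure D3:**
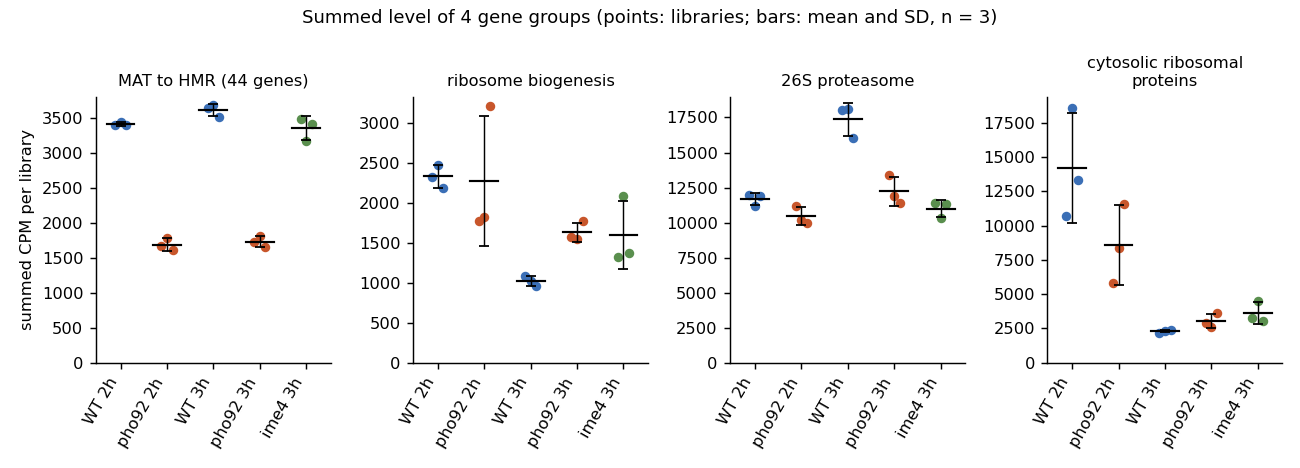
Summed CPM per library (vertical axis, points) with mean and SD (bars, n = 3) for the genes between MAT and HMR and for ribosome biogenesis, 26S proteasome and cytosolic ribosomal protein genes, in WT and pho92 at 2 and 3 h and in ime4 at 3 h. The MAT to HMR sum is 1610 to 1810 CPM in the pho92 libraries at both times and 3170 CPM or more in the others.

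Several of the largest rises were in metabolic genes. MET6, which encodes methionine synthase, had the largest named rise, with 73.3, 66.2 and 78.4 CPM in WT and 202, 229 and 450 in pho92 (2.01, SE 0.44, adjusted p = 0.00103). ICL1, the isocitrate lyase gene of the glyoxylate cycle, had 158, 109 and 169 against 371, 428 and 839 CPM (1.91, SE 0.43, adjusted p = 0.0014). The pho92 libraries were above WT throughout, and replicate 3 was the highest of them for both genes. SHM2 (1.79), GCV1 (1.69) and ADE17 (1.67) belong to one-carbon, glycine and purine metabolism, and ALD6 (1.75) makes acetate in the cytosol.

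By list, 24 of 59 amino acid biosynthesis genes were higher and 3 lower (40.7% and 5.08%, median 0.39; THR4, 1 of the lower, lies between MAT and HMR), with LEU4 at 1.18 (SE 0.22, adjusted p = 0.000116) and HIS1 at 1.56 (adjusted p = 0.003). Of 25 genes of sulfate assimilation and of methionine and cysteine synthesis 6 were higher and 0 lower (median 0.41), MET6 among them, with the transporter gene MMP1 at 1.48, MET17 at 1.45 and STR3 at 1.05. Of 19 glycolytic genes 7 were higher and 0 lower (median 0.52), among them TPI1 (1.33), GPM1 (1.36), the glucokinase gene GLK1 (0.60) and PYK2 (0.48). The glyoxylate cycle, gluconeogenesis and acetate list had 5 of 21 higher and 0 lower (median 0.49), with PCK1 at 1.19, FBP1 at 1.02 and SFC1 at 0.92 beside ICL1. Nitrogen-regulated permease and GATA factor genes had 7 of 25 higher and 0 lower (median 0.45), among them MEP2 (1.59), DAL5 (1.32), MEP3 (1.26) and DAL80 (0.97). The fatty acid list, which also holds the phospholipid synthesis genes INO1 and OPI3, had 5 of 15 higher and 0 lower (median 0.34). The 5 included INO1 (0.96), FAS1 (1.2), ACC1 (0.80) and OPI3 (0.71). Ergosterol genes had 3 of 26 higher (11.5%, near the 10.3% of all genes, median 0.03), namely ERG3 (1.56), ERG20 (1.24) and ERG1 (0.83). These calls leaned heavily on pho92 replicate 3: without it 3 amino acid genes, 2 sulfur, 2 glycolytic, 2 glyoxylate, 3 nitrogen, 0 fatty acid and 1 ergosterol genes were called higher. In that fit TPI1 stood at 0.69 (adjusted p = 0.245), GPM1 at 0.76 (adjusted p = 0.257), HIS1 at 1.12 (adjusted p = 0.0771), PCK1 at 0.93 (adjusted p = 0.0867), OPI3 at 0.47 (adjusted p = 0.322) and ERG3 at 1.23 (adjusted p = 0.0511), and MET17, STR3, SFC1, INO1 and ERG1 were not called either (adjusted p = 0.114 to 0.173). FAS1 lost its call without any one of the 6 libraries (adjusted p = 0.0682 to 0.186) and ACC1 without any but pho92 replicate 1. The fatty acid list had 2 higher with total counts only, 1 higher and 1 lower with RLE factors, and 1 higher without pho92 replicate 2. Without WT replicate 2 there were 13 amino acid, 3 sulfur, 2 glycolytic, 3 glyoxylate, 3 nitrogen and 0 fatty acid genes, and without WT replicate 1 there were 15, 2, 7, 4, 3 and 1. At 2 h 10 amino acid genes (median 0.34) and 9 nitrogen genes (median 0.69) were already higher, and 8.47% of all genes tested. The other lists had 0 sulfur, 1 glycolytic, 0 glyoxylate, 3 fatty acid and 4 ergosterol genes higher then. Called lower at 2 h were 3 amino acid and 2 ergosterol genes. The test of the change between the times called 1 glyoxylate gene upward and 0 genes of the other lists.

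Stress and storage genes moved both ways. HSP12, which encodes a small membrane-protecting stress protein, had 134, 118 and 166 CPM in WT and 354, 437 and 671 in pho92 (1.80, SE 0.31, adjusted p = 5.29e-05), whereas the chaperone gene HSP82 had 3360, 3610 and 2530 against 2090, 1950 and 1960 CPM (−0.66, SE 0.19, adjusted p = 0.0138). Each strain kept its own range in both genes. Of all genes tested 10.3% were higher and 7.64% lower. The heat shock and stress list had 4 of 26 higher and 4 lower (15.4% each way, median −0.07). YGP1 stood at 1.02 and HSP60 at −0.58. The trehalose and glycogen list had 5 of 18 higher and 3 lower (27.8% and 16.7%, median 0.25). GPH1 was at 1.45, TSL1 at 1.05 and GSY2 at 0.84 against UGP1 at −0.66. Without WT replicate 2 the first list had 2 higher and 0 lower and the second 2 higher and 1 lower, and without pho92 replicate 3 each had 2 higher and 1 lower. HSP82 lost its call with total counts only (adjusted p = 0.119) and without pho92 replicate 3 (adjusted p = 0.0646) or WT replicate 2 (adjusted p = 0.0904), and HSP60 without WT replicate 2 (−0.39, adjusted p = 0.103). GSY2 lost it without WT replicate 2 (adjusted p = 0.06) and pho92 replicate 3 (adjusted p = 0.0827). Among the other large rises were GRE2 (1.84), a reductase gene, the eisosome gene FMP45 (1.77; adjusted p = 0.0609 without pho92 replicate 3 and 0.0502 without WT replicate 2) and FET3 (1.63), the ferroxidase gene of iron uptake.

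**Figure D4:**
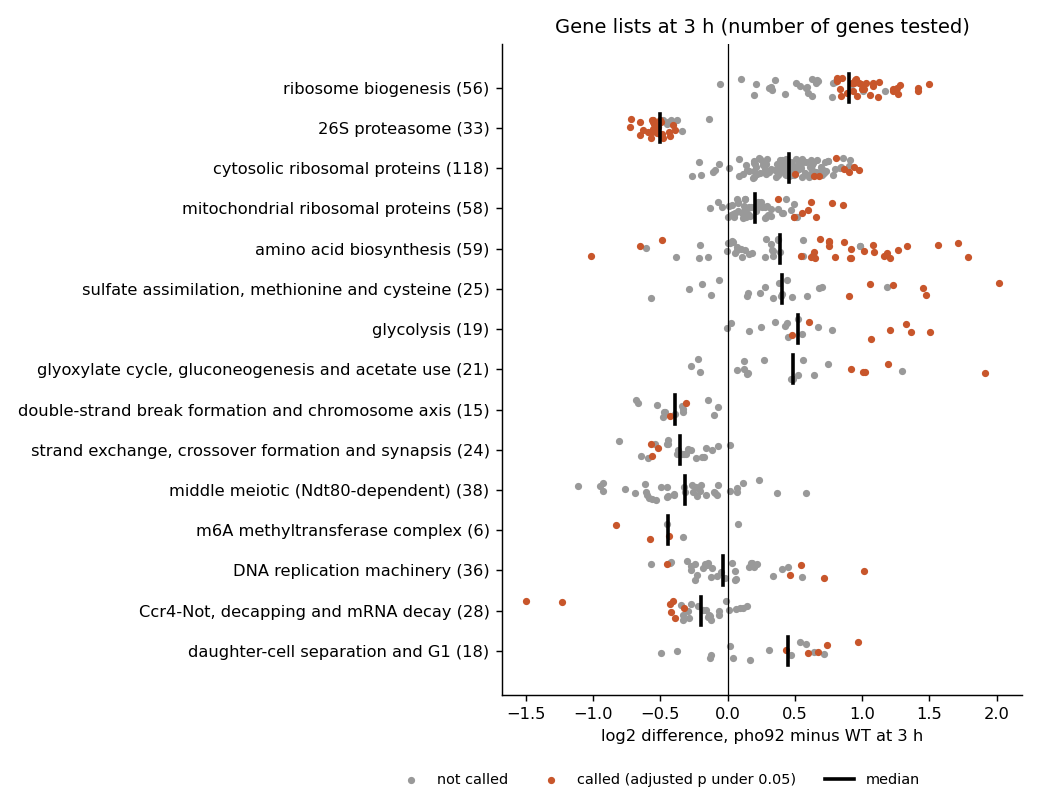
Log2 difference between pho92 and WT at 3 h (horizontal axis) for each member of 15 gene lists (1 line each, with the number of genes tested), called members in orange and the median as a black bar. Ribosome biogenesis (median 0.90) lies to the right of 0 and the 26S proteasome (median −0.50) to its left, while the recombination lists lie slightly to the left with few calls.

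Some mitotic and budding genes were higher. MCD1, the cohesin subunit that Rec8 largely replaces in meiosis, had 23.5, 21.6 and 23.2 CPM in WT and 65.9, 80.2 and 67.1 in pho92 (1.64, SE 0.30, adjusted p = 9.43e-05). AXL2, an axial bud-site marker gene, had 31.1, 31.7 and 34.3 against 83.9, 100 and 82.7 CPM (1.46, SE 0.21, adjusted p = 1.46e-06), and the bud-neck kinase gene KCC4 33.8, 37.4 and 46.5 against 77.4, 122 and 105 CPM (1.37, SE 0.20, adjusted p = 3.56e-06). In these genes the lowest pho92 library was well above the highest WT library. In the septin and bud-neck list 5 of 16 were higher and 2 lower (31.2% and 12.5%), beside 10.3% and 7.64% of all genes tested. Yet 10 members were below 0 (median −0.22), with the kinase gene GIN4 at 0.94 and the septin gene CDC11 at −0.67. In the daughter-cell and G1 list 5 of 18 were higher (27.8%) and 0 lower (median 0.45), with DSE2 at 0.97, CLN1 at 0.74, the chitinase gene CTS1 at 0.67 and SIC1 at 0.43. That count was 2 without WT replicate 1, WT replicate 2 or pho92 replicate 3 and 1 without pho92 replicate 2, where CLN1 stood at 0.52 (adjusted p = 0.0975), and CTS1 and SIC1 lost their calls without any of these libraries. Cell surface and trafficking genes among the largest rises were FLC1 (1.76, SE 0.19, adjusted p = 3.05e-09), the exomer gene BUD7 (1.74, SE 0.17, adjusted p = 4.7e-11) and the yapsin gene YPS3 (1.73, SE 0.20, adjusted p = 1.24e-08).

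Among regulators, UME6 had 184, 170 and 180 CPM in WT and 314, 315 and 308 in pho92 (0.81, SE 0.16, adjusted p = 0.000308), and PHD1, a gene of filamentous growth, 28.1, 23.0 and 26.8 against 62.1, 61.4 and 66.1 CPM (1.28, SE 0.25, adjusted p = 0.000223). Libraries of a strain lay close together in both. Of 19 regulators of meiotic entry 2 were higher, these, and 2 lower, 10.5% each way and so near the 10.3% and 7.64% of all genes. The lower were MCK1 (−0.39, adjusted p = 0.01) and HST1 (−0.65, adjusted p = 0.047), and both lower calls were lost without pho92 replicate 3 (adjusted p = 0.14 and 0.237), that of HST1 also without any other of the 6 libraries. Of 5 genes of the Paf1 complex, which travels with RNA polymerase II, 2 were higher. RTF1 had 49.1, 49.2 and 55.4 CPM against 109, 118 and 114 (1.15, SE 0.13, adjusted p = 9.67e-09), with no overlap, and CTR9 differed by 0.73 (adjusted p = 0.0023). In the mRNA decay list 7 of 28 were lower and 0 higher (median −0.20), but CDC39 and PAT1 of these lie between MAT and HMR. Outside it MOT2, the ubiquitin ligase gene of Ccr4-Not, was lower by −0.41 (adjusted p = 0.00239) and EDC3 by −0.32 (adjusted p = 0.00428), the latter not without pho92 replicate 3 (adjusted p = 0.0511) nor under scaling by total counts (adjusted p = 0.28), and 3 of the 28 were called in either setting. The autophagy list had 3 of 24 lower (12.5%, beside 7.64% of all genes) and 1 higher. The lower were ATG15 (−0.93) in the same stretch, ATG13 (−0.51) and ATG7 (−0.48), and the higher was CPS1 (0.85). Without pho92 replicate 3, 2 were lower and 0 higher, with ATG7 (adjusted p = 0.161) and CPS1 (adjusted p = 0.124) not called.

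The other lists held few calls, to be read beside the 10.3% higher and 7.64% lower of all genes tested. Of 38 respiratory chain and ATP synthase genes 4 were higher and 0 lower (median 0.02), with the cytochrome c gene CYC1 at 1.34 (adjusted p = 0.000151). Of 24 haploid-specific and mating genes 3 were higher and 2 lower (median −0.07), with the mating kinase gene FUS3 at 1.28 (adjusted p = 2.14e-07) and the agglutinin gene AGA2 at −1.31. The iron regulon had 3 of 21 higher and 1 lower, copper uptake and defence 2 of 14 higher and 0 lower (FET3, which the iron list also holds, and CUP2), and the phosphate regulon 1 of 25 higher and 2 lower. A single gene was called in each of the lists for dNTP supply (RNR3, 1.05, of 10), hexose transporters (HXT4, 1.01, of 10), cyclins (CLN1, of 12) and the tricarboxylic acid cycle (ACO1, of 14), all higher, and for histones (HTZ1, −0.76, of 11), beta-oxidation (OAF1, of 16) and meiotic splicing and RNA regulators (NAM8, −0.58, of 9), all lower. Among 9 genes used as auxotrophic markers 4 were higher and 0 lower, and 0 were called without pho92 replicate 3. Without that library 1 respiratory gene, 1 iron regulon gene and 0 genes of the histone, RNA regulator and tricarboxylic acid cycle lists were called.

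Differences already stood before the copper hour. At 2 h 493 genes were higher in pho92 (8.47%) and 227 lower (3.9%). Of the genes higher at 3 h 173 were also higher at 2 h, 29.0% of the 3 h list and 35.1% of the 2 h list. Of those lower at 3 h 109 were lower at 2 h, 24.5% and 48.0%, and outside the chromosome III stretch and the PHO92 locus 77, 18.8% and 40.3%. GRE2 (1.72 at 2 h), ADE17 (1.86), ALD6 (2.15), BUD7 (1.33) and MCD1 (1.19) belonged to the first group, whereas MET6 (0.60, adjusted p = 0.385), ICL1 (0.61, adjusted p = 0.365) and HSP12 (0.27, adjusted p = 0.626) were not called at 2 h. MET6, ICL1 and HSP12 were not called in the test of the change between the times either. Their differences are therefore not shown to have arisen after 2 h. The 2 h count of 720 was 166 in a fit to the 6 libraries alone and 314 without pho92 replicate 3, 328 without WT replicate 2 and 460 without WT replicate 1.

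Whether a difference at 3 h departed from that at 2 h was tested directly. The strain difference changed upward for 8 genes (0.137%) and downward for 30 (0.515%). That balance rested on single libraries, with 40 upward and 13 downward without pho92 replicate 3 at 2 h and 55 and 51 without pho92 replicate 1 at 2 h. PPH3, a protein phosphatase gene, went from 39.9, 45.1 and 47.9 CPM to 31.7, 35 and 40 in WT and from 59.2, 53.8 and 66.3 to 86.8, 90.3 and 81.9 in pho92, so that its difference rose by 0.85 (SE 0.16, adjusted p = 0.00394). RPP1A (1.28, adjusted p = 0.00633), EPO1 (0.81, adjusted p = 0.0181), FBP1 (1.25, adjusted p = 0.0346) and RPL20A (1.37, adjusted p = 0.0384) were the other largest upward changes. AIM20 went from 2.70, 2.09 and 3.6 CPM to 11.9, 11.3 and 12.3 in WT and from 4.02, 6.22 and 9.12 to 8.12, 5.94 and 6.58 in pho92 (−1.99, adjusted p = 0.00394). In WT it rose several-fold within the hour, while in pho92 the ranges at both times overlapped. The cell wall genes SRL1 (−1.92, adjusted p = 0.0307), SVS1 (−1.53, adjusted p = 0.0344) and EXG2 (−1.30, adjusted p = 0.0346) and the gene CSI2 (−1.77, adjusted p = 0.0116) followed. The count of 38 ranged from 8 without WT replicate 2 at 2 h to 106 without pho92 replicate 1 at 2 h, and also moved by more than 1.5 times without WT replicate 1 (16), 2 (10) or 3 (24) at 3 h, pho92 replicate 2 (16) or 3 (11) at 3 h, and WT replicate 1 (78) or 3 (18) at 2 h. Without WT replicate 2 at 2 h all of the 10 named changes but those of AIM20 and PPH3 lost their call (adjusted p = 0.0654 to 0.224), and scaling by total counts ended the call of PPH3 (adjusted p = 0.114).

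**Figure D5:**
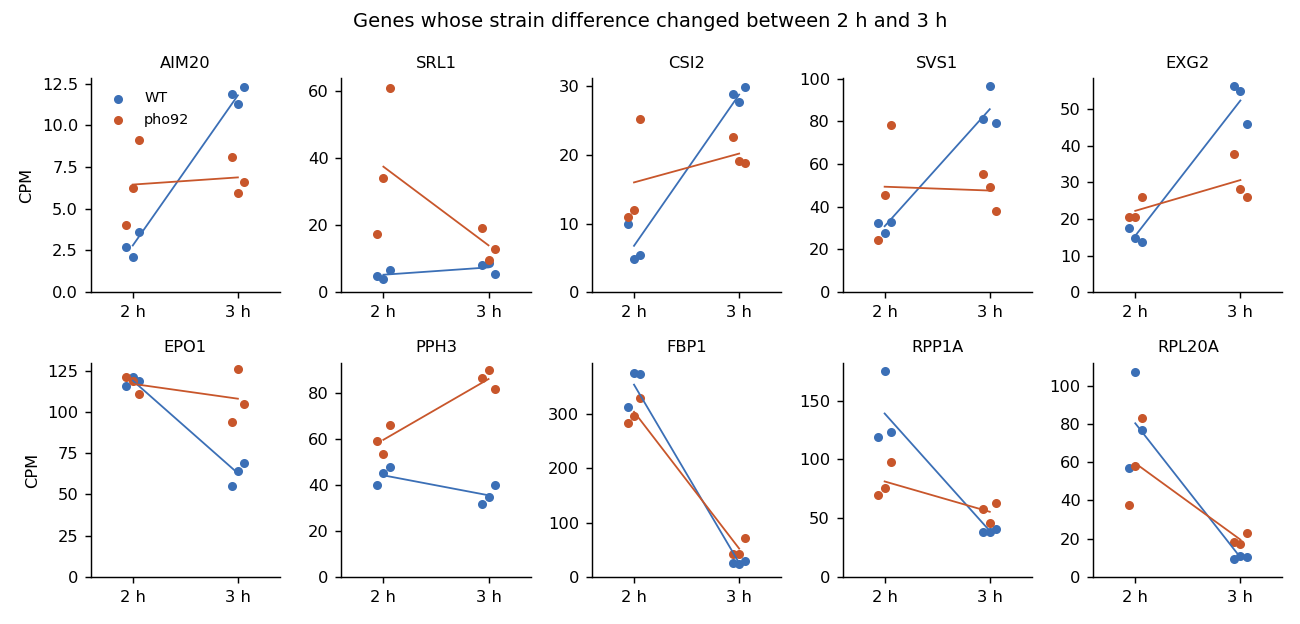
CPM (vertical axis) of each WT (blue) and pho92 (orange) library at 2 and 3 h, with lines joining the means, for the 10 genes with the largest change in strain difference, ordered from AIM20 (−1.99) to RPL20A (1.37). In AIM20, CSI2, SVS1 and EXG2 the WT libraries climb over the hour past those of pho92, and in EPO1 and FBP1 they fall further.

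Against ime4 at the same time pho92 differed in fewer genes, 158 higher (2.71%) and 134 lower (2.3%). IME4 was lost in ime4, as the label says, with 0.142, 0.155 and 0.256 CPM there, and PHO92 had 766, 684 and 715 CPM in ime4. HSP12 was higher in pho92 than in ime4 (166, 178 and 128 CPM in ime4; 1.63, adjusted p = 0.000485), as was the mitochondrial co-chaperone gene MGE1, which had 61.4, 62.7 and 65.4 CPM in pho92 and 20.7, 26.2 and 24.9 in ime4 (1.4, adjusted p = 7.18e-07). Both stood apart in every library. The proline permease gene PUT4 (1.25, adjusted p = 0.0112) and the spore wall gene CRR1 (1.34, adjusted p = 0.0307) followed, of which PUT4 lost its call without ime4 replicate 2 (adjusted p = 0.0846) and CRR1 without any one ime4 library or pho92 replicate 1 (0.88, adjusted p = 0.364). Mitochondrial ribosomal protein genes were higher in pho92 for 20 of 58 and lower for 0 (median 0.42). The lower side was led by PHO92, FRQ1 and 2 genes of the chromosome III stretch, SRB8 (−1.61) and MSH3 (−1.54), together with the sterol desaturase gene ERG3 (−1.54, adjusted p = 0.0054; −1.36, adjusted p = 0.0722 without pho92 replicate 1). Further ones outside the stretch, named after their values were seen, were PDR5 (−1.4, adjusted p = 2.75e-05), a drug efflux pump gene with 57.7, 73.2 and 75.6 CPM in pho92 against 191, 170 and 184 in ime4, and SWI5 (−1.20, adjusted p = 0.00404; 0.0531 without pho92 replicate 1). Ribosome biogenesis genes gave 0 higher and 1 lower of 56 (median 0.02) and proteasome genes 0 of 33 in either direction (median 0.16). A missed threshold does not show that the mutants were alike in them. The count of 292 fell to 130 without pho92 replicate 1 and 161 without ime4 replicate 1.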

How the data were processed

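Polyadenylated RNA was sequenced as stranded single reads from 63 libraries, 3 strains at 7 times with 3 biological replicates each. Reads were mapped with TopHat2 2.0.14 and Bowtie and counted with HTSeq 0.6.1, per the submitters' processing notes, which also name bcl2fastq 2.17.1.14, R 3.5.1 and DESeq2 1.22.1. For the build and the strand setting, the sources used here say nothing. The authors deposited whole-number read counts per gene for each library, and, for pho92 against WT at 3 h, a log2 fold change and p-values of their own, which the authors' deposited table gives without errors. Its 126 normalized per-sample columns were not used.

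From the deposited counts, edgeR 4.0.16 (limma 3.58.1, R 4.3.3) fitted 21 strain and time groups to all 63 libraries with TMM factors (1.37 to 1.48 at 3 h) and its quasi-likelihood test, so that all groups share one estimate of spread (42 residual degrees of freedom and a common biological CV of 0.184). The expression filter (minimum count 10) removed 266 genes and left 5822. CPM used the TMM-scaled library sizes, and p-values were adjusted by Benjamini and Hochberg over all genes tested. The scripts were tested on simulated counts. Replicates of a group differed by far more than sampling noise.

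Gene names and R64 positions came from the table and the RefSeq S288C annotation, with 5575 of 6088 identifiers matched and 513 not. Of 1004 members of 38 gene lists 956 were in the table. Members and lists were chosen with earlier results of these data known. Named were PHO92, IME4 and IME1, then the 15 largest rises and 15 largest falls among called genes with a mean of 10 CPM or more in either group and no overlap between libraries (unnamed open reading frames skipped, of which 1 passed the smallest named rise and 0 the smallest named fall), up to 4 members of each list by adjusted p, and, both for the change from 2 to 3 h and for pho92 against ime4, the 5 largest up and the 5 largest down. RPN4, MEP2 and THR4 and other genes so described were chosen after their values were seen. Some genes that the rule takes are not reported here. Alternatives were total counts only, RLE factors, no filter, DESeq2 1.42.0, the compared libraries alone, a replicate block, and leaving out libraries. Counts without the MAT to HMR genes, PHO92 and FRQ1, and the alternatives for that stretch, were added after seeing the data.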

Additional observations from a re-analysis of the deposited data

Results flagged for a closer look

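For 38 genes, of which 10 are named, the difference between pho92 and WT at 3 h was itself different from that at 2 h, by a test of the change in edgeR's quasi-likelihood fit. Upward changes on the log2 scale were 1.37 for RPL20A (adjusted p = 0.0384), 1.28 for RPP1A (adjusted p = 0.00633), 1.25 for FBP1 (adjusted p = 0.0346), 0.85 for PPH3 (adjusted p = 0.00394) and 0.81 for EPO1 (adjusted p = 0.0181). Downward changes were −1.99 for AIM20 (adjusted p = 0.00394), −1.92 for SRL1 (adjusted p = 0.0307), −1.77 for CSI2 (adjusted p = 0.0116), −1.53 for SVS1 (adjusted p = 0.0344) and −1.30 for EXG2 (adjusted p = 0.0346). At 2 h the third pho92 replicate was the highest of its group for SRL1 (61.0 CPM), CSI2 (25.2 CPM) and SVS1 (78.2 CPM), and its part in these changes was seen by leaving it out: they stood at −1.37, −1.28 and −1.03, with adjusted p of 0.0895, 0.0577 and 0.128.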

How the results depend on the processing

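Fitted to the compared libraries alone, 2215 genes were called at 3 h, 166 at 2 h and 19 for the change between them, and 458 list members. DESeq2 called 120 for the change. Leaving out every library numbered 1 left 128 calls for pho92 against ime4. The median of the genes that rise in WT moved to −0.10 with total counts only and −0.27 with RLE factors or DESeq2, and that of the genes that fall to 0.39 with total counts only. Leaving out 1 library at a time gave 418 to 965 calls at 3 h, 314 to 917 at 2 h, 8 to 106 for the change, 130 to 234 against ime4, 74 to 205 list members and 29 to 32 genes lower between MAT and HMR. The cause was not tested, though each such fit has fewer libraries. At 2 h total counts only gave 572 higher and 72 lower and RLE factors 395 and 301, and against ime4 these gave 75 and 125, and 111 and 159. Of 2510 values of 175 named results 2189 kept their direction and side of the threshold, 305 lost the call, 16 gained one and 0 reversed.

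The labels do not state that the replicate numbers pair the samples, and the main fit assumed no pairing. Deviations from the group means correlated at 0.298, 0.006 and 0.318 between same-numbered WT and pho92 libraries at 3 h. Between differently numbered ones the correlations were −0.405 to 0.123. At 2 h they were 0.093 to 0.541 for the same number and −0.506 to 0.525 for different numbers. These values do not settle whether the numbers pair the samples. With a replicate block over all libraries, 1060 genes were called at 3 h, 758 at 2 h, 40 for the change, 317 against ime4 and 215 list members. With the replicate block and the compared libraries alone, the counts were 2575, 289, 128, 77 and 533.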
